A study of Mus musculus with 8 samples.

Results

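Transcript abundance of 9 genes that carry glucose and lactate across membranes was compared in pachytene-enriched fractions of *Arid1a* WT and *Arid1a* cKO testes. The genes were taken by name and comprised 4 glucose or fructose transporters (*Slc2a1*, *Slc2a3*, *Slc2a5* and *Slc2a8*), 3 monocarboxylate transporters (*Slc16a1*, *Slc16a3* and *Slc16a7*) and 2 partner proteins (*Bsg* and *Emb*). All 9 were present among the 21058 genes listed, and all 9 were among the 17643 genes with enough counts to be tested. The libraries were made from RNA of spermatocytes enriched by Sta-Put, a separation of dissociated testis cells by their rate of sedimentation under gravity. There were 4 libraries of each genotype.

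*Arid1a* encodes a subunit of the BAF class of SWI/SNF chromatin remodelers. Mutant (*Arid1a* cKO) males had the genotype *Arid1a* fl/fl; Stra8-Cre Tg/0. Control (*Arid1a* WT) males were fl/fl or fl/+ at *Arid1a*, so that they carried floxed alleles too. The floxed line was kept on a CD1 background, the males were adult, and testes of several males went into each cell preparation. The *Stra8* promoter drives Cre in spermatogonia, and the share of cells in which *Arid1a* was excised was not measured in these libraries. The authors reported incomplete excision in *Arid1a* cKO pachytene fractions, so these libraries may mix mutant cells with cells that kept *Arid1a*. In round spermatids of *Arid1a* cKO testes they reported only the unexcised transcript. No label states whether the replicates of a genotype came from separate cell preparations, and the p-values then measure only the spread between these libraries.

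Cells inside the seminiferous tubule do not all use the same fuel. Sertoli cells, the somatic nurse cells, take up glucose, convert it to lactate and release it, and spermatocytes and spermatids take up lactate and pyruvate as a main fuel. Glucose enters cells down its gradient through the GLUT proteins of the SLC2 family, and lactate and pyruvate move together with a proton through the MCT proteins of the SLC16 family. MCT proteins need a partner of the immunoglobulin superfamily, such as basigin (*Bsg*) or embigin (*Emb*), to reach the cell surface.

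The libraries labelled *Arid1a* cKO held less *Arid1a* transcript, at 14.7 to 16.3 TPM (a level scaled for transcript length and library depth), against 19.1 to 26.0 TPM in *Arid1a* WT, a log2 fold change of -0.51 (SE 0.07, edgeR adjusted p = 2.31e-05). Totals ran from 15850961 to 22044507 estimated counts per library. Pairs of *Arid1a* WT libraries differed more, with a chi-square of 4.38 to 18.05 per degree of freedom, than pairs of *Arid1a* cKO libraries, with 1.71 to 3.45. The genes listed summed to 780735 to 811443 TPM in *Arid1a* WT and 880901 to 886412 in *Arid1a* cKO, so that TPM levels of the genotypes rest on unequal listed shares. All 6 pachytene markers were detected in every library. In *Arid1a* cKO 4 of them were lower and 2 higher, beside 37.5% lower and 36.5% higher over all genes tested. *Piwil1*, which encodes a piRNA-binding protein, fell from 598 to 36.9 TPM (log2 fold change -3.88), and *Sycp1*, which encodes a protein of the synaptonemal complex, rose from 78.5 to 137 TPM (0.83).

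In the *Arid1a* WT libraries *Slc2a3* was by far the most abundant of the 9 transcripts, and in the *Arid1a* cKO libraries it was the fourth. *Slc16a7* moved the other way and became the second most abundant. Of the 9 genes, 2 were higher and 5 lower in *Arid1a* cKO relative to *Arid1a* WT, at an adjusted p of 0.05 or less in edgeR's quasi-likelihood test. Over all genes tested, 36.5% were called higher and 37.5% lower, or 74% in either direction, so that a share of 7 in 9 is near the background. The CPM values (counts scaled by library size) of 7 of the 9 genes did not overlap between genotypes, as for 68.9% of all genes tested. The median log2 fold change was -0.42 over the 9 genes and -0.02 over all genes tested.

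**Figure D1:**
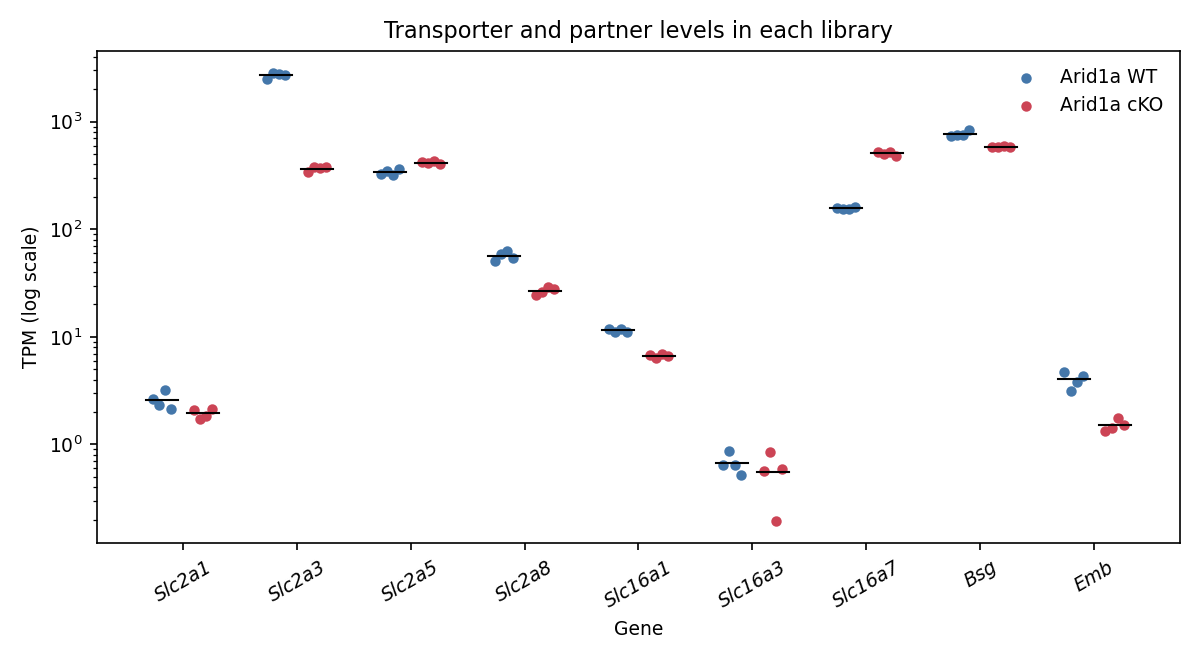
Level of each transporter and partner gene in TPM on a log axis, with 1 point per library (4 *Arid1a* WT in blue, 4 *Arid1a* cKO in red) and a bar at the genotype mean. *Slc2a3* drops from a mean of 2706 to 366 TPM and *Slc16a7* rises from 156 to 509 TPM, while the points of *Slc2a1* and *Slc16a3* overlap between genotypes.

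The order of TPM levels in *Arid1a* WT was *Slc2a3*, *Bsg*, *Slc2a5*, *Slc16a7*, *Slc2a8*, *Slc16a1*, *Emb*, *Slc2a1* and *Slc16a3*. Among neighbours in that order, only *Emb* (3.13 to 4.76 TPM) and *Slc2a1* (2.15 to 3.20 TPM) had overlapping ranges. In *Arid1a* cKO the order was *Bsg*, *Slc16a7*, *Slc2a5*, *Slc2a3*, *Slc2a8*, *Slc16a1*, *Slc2a1*, *Emb* and *Slc16a3*, and the only neighbours whose ranges overlapped were again *Slc2a1* (1.71 to 2.15 TPM) and *Emb* (1.33 to 1.75 TPM).

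*Slc2a3* encodes GLUT3, a glucose transporter of high affinity known best from neurons and also made in germ cells. The gene (Entrez 20527) lies on the minus strand at chr6:122727809-122802363 of GRCm38.p6. Its level was 2503, 2825, 2780 and 2718 TPM in *Arid1a* WT libraries 1 to 4 and 344, 375, 368 and 377 TPM in *Arid1a* cKO libraries 1 to 4. Every *Arid1a* cKO library lay far below every *Arid1a* WT library. The mean fell from 2706 ± 143 TPM (SD, n = 4) to 366 ± 15.3 TPM (SD, n = 4). On TMM-scaled counts the log2 fold change was -2.74 (SE 0.05, edgeR adjusted p = 4.01e-14), which is 6.68-fold lower. *Slc2a3* had the 7th highest mean TPM of all listed genes in *Arid1a* WT and ranked 467 in *Arid1a* cKO. Only 145 of the genes tested, or 0.822%, had a lower log2 fold change.

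*Slc2a5* encodes GLUT5, which carries fructose in preference to glucose, and it is the only gene of the 4 SLC2 genes that rose. It is found at chr4:150119344-150144168 on the plus strand (Entrez 56485). *Arid1a* WT libraries 1 to 4 held 323, 350, 323 and 360 TPM, and *Arid1a* cKO libraries 1 to 4 held 418, 411, 431 and 407 TPM. The lowest *Arid1a* cKO library was above the highest *Arid1a* WT library, by a narrow margin beside that of *Slc2a3*. The means were 339 ± 18.8 and 417 ± 10.6 TPM (SD, n = 4 each), and the log2 fold change was 0.46 (SE 0.06, edgeR adjusted p = 3.24e-06).

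*Slc2a8* encodes GLUT8, a transporter held largely on membranes inside the cell and abundant in testis. The gene (Entrez 56017) is on the minus strand of chromosome 2, at chr2:32972981-32982083. Libraries 1 to 4 of *Arid1a* WT had 50.2, 58.9, 62.5 and 54.3 TPM, and those of *Arid1a* cKO had 24.4, 26.2, 29.0 and 27.6 TPM. The genotypes were well apart, and the mean fell from 56.5 ± 5.36 to 26.8 ± 1.97 TPM (SD, n = 4 each). Its log2 fold change of -0.98 (SE 0.06, edgeR adjusted p = 7.14e-10) is close to a halving.

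*Slc2a1* encodes GLUT1, the transporter for basal glucose uptake in most cells and in Sertoli cells, and it was scarce in these fractions. Its locus is chr4:119108745-119137330 on the plus strand (Entrez 20525). The levels were 2.66, 2.31, 3.20 and 2.15 TPM in *Arid1a* WT libraries 1 to 4 and 2.08, 1.71, 1.84 and 2.15 TPM in *Arid1a* cKO libraries 1 to 4. The highest *Arid1a* cKO library matched the lowest *Arid1a* WT library, and the counts behind them were only 85 to 109 and 55 to 74 per library. The log2 fold change of -0.28 (SE 0.13) was not called (edgeR adjusted p = 0.0694). It passed the threshold without TMM scaling (-0.38, adjusted p = 0.0283), without *Arid1a* WT library 2 (-0.35, adjusted p = 0.0352) and with limma on log2(TPM + 1) (-0.28, adjusted p = 0.0302) or log2(TPM + 0.1) (-0.38, adjusted p = 0.0349).

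Promoter sequences from RefSeq (GRCm38.p6) were available for 6 of the 9 genes, each covering 250 bases before to 50 after the annotated start, and are shown 5′ to 3′ on the gene's own strand for the called genes with a mean of at least 5 TPM. The promoters of *Slc2a5* and *Slc2a8* come first, and whether their letters bear on the direction of change was not tested. Capitals mark matches on either strand to any of 5 motifs searched, which were the CCAAT box (the letters of its name), the TATA box with the letters TATAAA, the E-box with the letters CACGTG, the cAMP response element with the letters TGACGTCA and the GC box with the letters GGGCGG.
Slc2a5, chr4:150119094-150119393, plus strand: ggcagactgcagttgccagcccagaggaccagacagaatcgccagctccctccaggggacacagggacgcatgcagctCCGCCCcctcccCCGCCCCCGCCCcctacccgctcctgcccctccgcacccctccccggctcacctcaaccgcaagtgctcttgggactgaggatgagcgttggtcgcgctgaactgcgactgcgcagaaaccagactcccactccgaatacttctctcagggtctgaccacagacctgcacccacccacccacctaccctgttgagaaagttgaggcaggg
Slc2a8, chr2:32982034-32982333, minus strand: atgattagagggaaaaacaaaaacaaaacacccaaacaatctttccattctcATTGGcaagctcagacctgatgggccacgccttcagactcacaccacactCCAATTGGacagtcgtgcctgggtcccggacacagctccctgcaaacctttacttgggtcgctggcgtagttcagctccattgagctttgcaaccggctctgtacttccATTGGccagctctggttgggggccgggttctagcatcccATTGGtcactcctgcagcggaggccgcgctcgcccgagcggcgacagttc
The *Slc2a5* stretch held 3 GC boxes and none of the other motifs. The *Slc2a8* stretch held 5 CCAAT matches, a pair of which overlap on opposite strands, and none of the others. Among 32851 mouse promoters of the same length, 35.7% held a GC box and 37.4% a CCAAT match, so that either motif is common. A GC box also lay in the windows of *Slc16a1* and *Emb*, which fell, and of *Slc2a1* and *Slc16a3*, which were not called. A match describes letters in this window only.

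The make-up of the SLC2 pool, summed over the 4 genes in TPM with the fructose carrier *Slc2a5* included, changed with these shifts. The sum was 3104 ± 156 TPM in *Arid1a* WT and 811 ± 17.3 TPM in *Arid1a* cKO (SD, n = 4 each). *Slc2a3* made up 87.2% ± 0.444 of the sum in *Arid1a* WT and 45.1% ± 1.33 in *Arid1a* cKO, and *Slc2a5* made up 10.9% ± 0.562 and 51.4% ± 1.38. The ratio of *Slc2a3* to *Slc2a5* was 7.56 to 8.61 in *Arid1a* WT libraries and 0.822 to 0.926 in *Arid1a* cKO libraries, so that *Slc2a5* transcript exceeded that of *Slc2a3* in each of the latter. *Slc2a8* contributed 1.82% and 3.30%, since it fell less than the sum, and *Slc2a1* contributed 0.0834% and 0.240%. These shares are descriptions of a chosen set and were not tested.

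**Figure D2:**
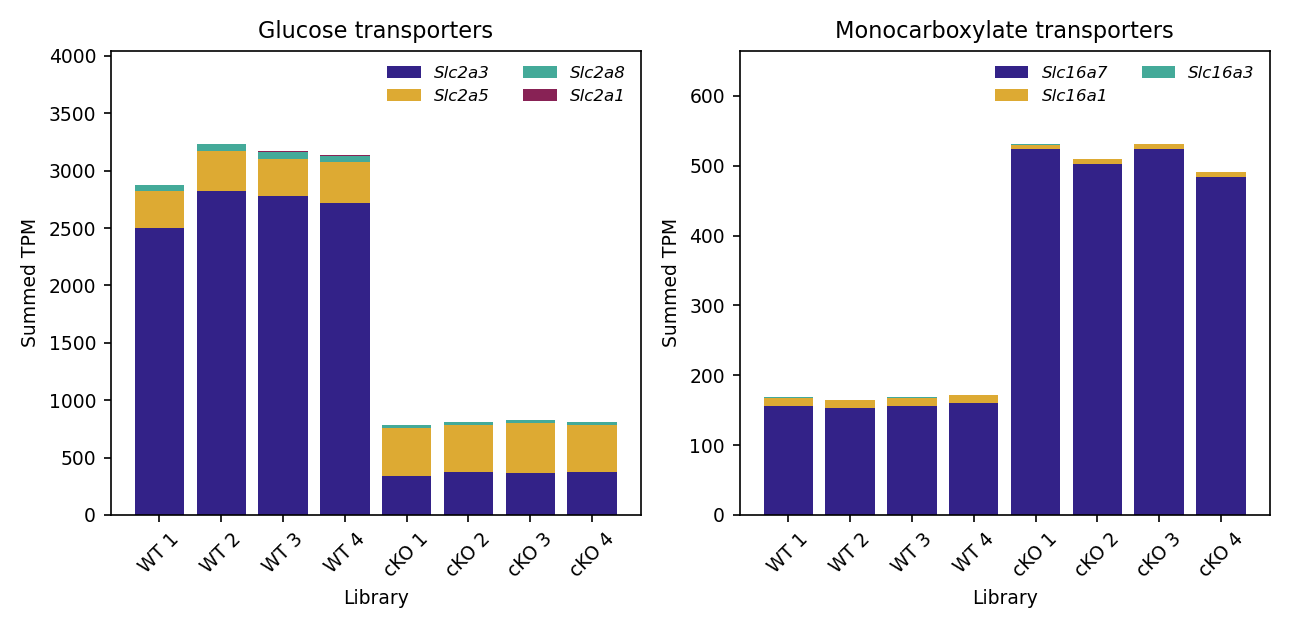
Summed TPM of the SLC2 genes (left, titled glucose transporters) and of the monocarboxylate transporters (right) in each library, with bars stacked by gene. The left panel includes the fructose carrier *Slc2a5*. The left stack falls from 2878 to 3236 TPM in *Arid1a* WT to 788 to 829 TPM in *Arid1a* cKO, mostly in *Slc2a3*. The monocarboxylate transporter stack grows from 165 to 172 TPM to 491 to 532 TPM, nearly all of it *Slc16a7*.

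*Slc16a7* encodes MCT2, a transporter of high affinity for lactate and pyruvate that is known from germ cells and sperm. It spans chr10:125219270-125389586 on the minus strand (Entrez 20503). *Arid1a* WT libraries 1 to 4 held 156, 153, 156 and 160 TPM, whereas *Arid1a* cKO libraries 1 to 4 held 524, 503, 525 and 484 TPM. Every *Arid1a* cKO library exceeded every *Arid1a* WT library. The mean rose from 156 ± 2.90 to 509 ± 19.4 TPM (SD, n = 4 each). The log2 fold change was 1.79 (SE 0.05, edgeR adjusted p = 6.77e-13), or 3.45-fold higher, and 11.5% of the genes tested had a higher one. Its rank by mean TPM moved from 1147 in *Arid1a* WT to 268 in *Arid1a* cKO.

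*Slc16a1* encodes MCT1, the transporter of lactate found in most tissues, and it fell. The gene (Entrez 20501) occupies chr3:104638664-104658462 on the plus strand. The levels in *Arid1a* WT libraries 1 to 4 were 11.8, 11.1, 11.9 and 11.1 TPM, and those in *Arid1a* cKO libraries 1 to 4 were 6.72, 6.41, 6.93 and 6.57 TPM. No library of one genotype reached the range of the other. The log2 fold change was -0.64 (SE 0.06, edgeR adjusted p = 1.49e-07), and the mean fell from 11.5 ± 0.469 to 6.66 ± 0.220 TPM (SD, n = 4 each). Its promoter is shown for comparison with those of *Slc2a5* and *Slc2a8*, with the same motifs in capitals.
Slc16a1, chr3:104638414-104638713, plus strand: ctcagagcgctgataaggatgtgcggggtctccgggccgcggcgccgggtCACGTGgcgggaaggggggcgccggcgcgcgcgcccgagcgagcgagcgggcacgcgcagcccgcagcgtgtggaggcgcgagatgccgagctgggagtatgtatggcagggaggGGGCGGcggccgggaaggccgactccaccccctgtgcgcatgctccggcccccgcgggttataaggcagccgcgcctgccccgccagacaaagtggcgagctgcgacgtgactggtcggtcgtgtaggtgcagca
This stretch held 1 E-box and 1 GC box. An E-box of these letters occurred in 7.15% of the 32851 promoters, and the GC content of the stretch was 73.7%, against 65.3% for *Slc2a5* and 55.7% for *Slc2a8*.

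*Slc16a3* encodes MCT4, which exports lactate from strongly glycolytic cells, and it was close to absent. It sits at chr11:120948484-120959000 on the plus strand (Entrez 80879). Each *Arid1a* WT library had 20 to 34 counts and each *Arid1a* cKO library 12 to 20. The levels were 0.644, 0.875, 0.642 and 0.520 TPM in *Arid1a* WT libraries 1 to 4 and 0.562, 0.857, 0.196 and 0.592 TPM in *Arid1a* cKO libraries 1 to 4, and they overlapped. A difference was not detectable at this depth (log2 fold change -0.42, SE 0.26, edgeR adjusted p = 0.157). The value was -0.23 without *Arid1a* WT library 4 and -0.27 without *Arid1a* cKO library 3, and was not called in either fit.

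Within the 3 monocarboxylate transporters the sum rose from 168 ± 2.73 to 516 ± 19.4 TPM (SD, n = 4 each). *Slc16a7* held 92.8% of that sum in *Arid1a* WT and 98.6% in *Arid1a* cKO, and *Slc16a1* held 6.82% and 1.29%. By estimated counts the shares were 87.0% and 97.3% for *Slc16a7* and 12.6% and 2.61% for *Slc16a1*. The ratio of *Slc16a7* to *Slc16a1* was 13.0 to 14.5 in *Arid1a* WT libraries and 73.6 to 78.5 in *Arid1a* cKO libraries. MCT2 was the main MCT of the 3 by transcript in both genotypes.

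*Bsg* encodes basigin, the usual partner of MCT1 and MCT4 and a glycoprotein needed for sperm production. Its position is chr10:79704358-79711979 on the plus strand (Entrez 12215). The levels were 731, 749, 753 and 833 TPM in *Arid1a* WT libraries 1 to 4 and 584, 581, 592 and 585 TPM in *Arid1a* cKO libraries 1 to 4. The *Arid1a* cKO libraries were tightly grouped and all below the lowest *Arid1a* WT library. The fall was small, with means of 767 ± 45.4 and 585 ± 4.49 TPM (SD, n = 4 each) and a log2 fold change of -0.26 (SE 0.06, edgeR adjusted p = 0.00110).

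*Emb* encodes embigin, the partner that MCT2 prefers in several tissues, and it fell while the transcript of MCT2 itself rose. The gene (Entrez 13723) is at chr13:117220573-117274415 on the plus strand. *Arid1a* WT libraries 1 to 4 contained 4.76, 3.13, 3.81 and 4.37 TPM, and *Arid1a* cKO libraries 1 to 4 contained 1.33, 1.41, 1.75 and 1.52 TPM. The ranges were apart, and the log2 fold change was -1.25 (SE 0.16, edgeR adjusted p = 5.00e-06). Its counts are uncertain in another way. Of the 31-base words in its transcripts, 17.4% also occur in transcripts of other genes, against 0 to 2.48% for the other 8 genes. A word counted when read on either strand, so words of an overlapping gene on the opposite strand are included. *Emb*, *Slc2a1* and *Slc16a7* each share exon sequence with a predicted gene on the opposite strand, and whether the counting used strand is not given in the sources used here.

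Basigin transcript outnumbered embigin transcript throughout, at 154 to 240 to 1 in *Arid1a* WT libraries and 337 to 441 to 1 in *Arid1a* cKO libraries. The ratio of *Bsg* to the summed monocarboxylate transporters was 4.33 to 4.86 in *Arid1a* WT and 1.10 to 1.19 in *Arid1a* cKO. *Bsg* transcript exceeded that of the 3 transporters in every library, by less in *Arid1a* cKO.

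**Figure D3:**
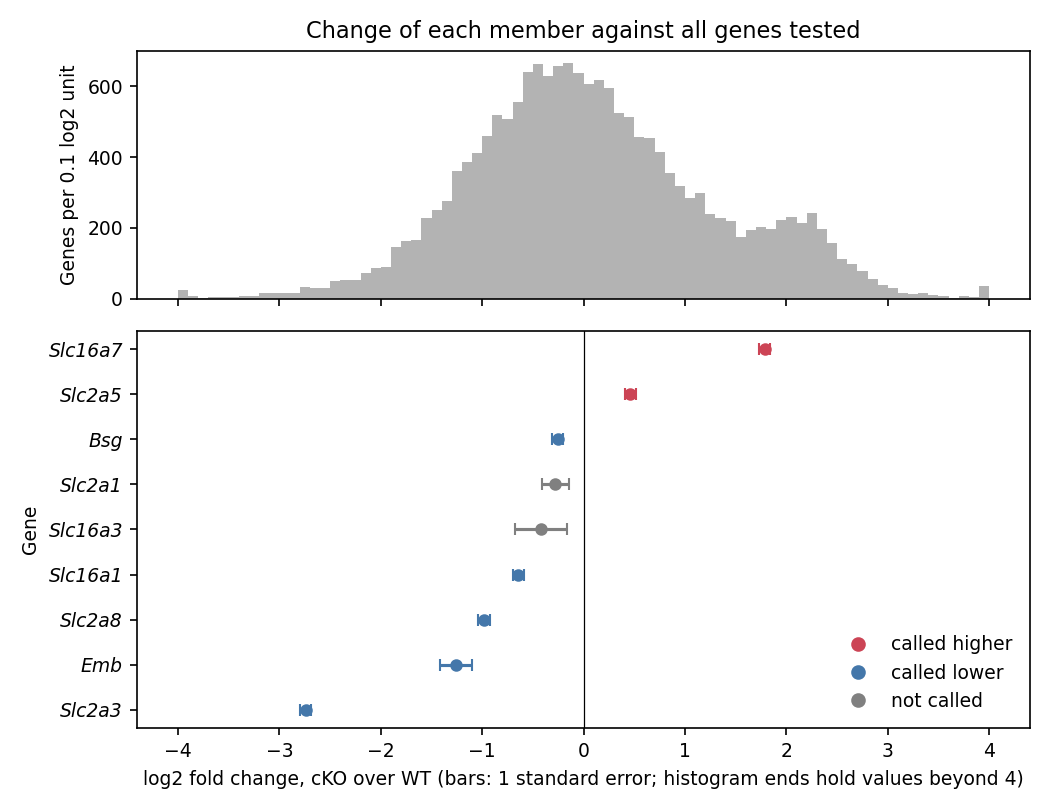
Upper panel, number of genes tested per 0.1 log2 unit of fold change (*Arid1a* cKO over *Arid1a* WT), with values beyond 4 placed in the end bins. Lower panel, log2 fold change of each of the 9 genes with bars of 1 standard error. *Slc2a3* at -2.74 lies in the lower tail of all genes and *Slc16a7* at 1.79 on the upper shoulder, and the other 7 genes lie between -1.25 and 0.46.

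A second readout came from the ratio of estimated count to TPM. It is proportional to the mean effective length of a gene's transcripts, weighted by abundance, as estimated for each library. This average length was greater in *Arid1a* cKO for 3.33% and smaller for 9.64% of the 16529 genes with a value (limma, adjusted p of 0.05 or less). The average length of *Slc2a5* was 2.23% greater in *Arid1a* cKO (log2 0.03, limma adjusted p = 0.0287). That of *Slc16a7* fell by 3.25% (log2 -0.05, limma adjusted p = 0.00656). *Slc16a1*, with 1 transcript in GENCODE, still ranged from 0.987 to 1.005 of its geometric mean over the libraries. Whether shifts of this size reflect a change of transcripts was not tested. The other 7 genes were not called, with adjusted p from 0.0721 for *Emb* to 0.957 for *Slc2a1*. The *Slc2a5* call was lost without *Arid1a* WT library 1 (adjusted p = 0.0585) or 2 (0.0825), and without *Arid1a* cKO library 1 (0.0694), 2 (0.0831) or 4 (0.0847). With the replicate number as a block, neither length change was called (limma adjusted p = 0.184 for *Slc2a5* and 0.0624 for *Slc16a7*). *Slc2a3* fell and *Slc16a7* rose on counts and on TPM alike.

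The 3 genes whose values over the 8 libraries were most like those of *Slc2a3* were *Tdrd1*, *Tcam1* and *Zbtb8a*, by the root mean square difference of gene-centred log2 CPM among 12997 genes. *Tdrd1*, which encodes a Tudor protein of the piRNA pathway, differed by 0.03 and fell from 144 to 19.5 TPM (log2 fold change -2.74). *Tcam1*, a testis cell adhesion gene, differed by 0.05 and had a log2 fold change of -2.71. *Zbtb8a*, a zinc finger gene, differed by 0.06 with -2.89. This measure spans both genotypes, so it matches genes to *Slc2a3* mostly on the gap between genotypes. The like fold changes follow from that choice and are no separate result.

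The other glucose transporters, including the sodium-coupled SLC5 proteins, were scarce, with a summed level of 7.50 to 9.27 TPM in *Arid1a* WT libraries and 12.3 to 12.8 TPM in *Arid1a* cKO. Of 13 tested, 3 were higher, 3 lower and 7 not called, against 74% called over all genes tested, with a median log2 fold change of 0.40. The number higher was 1 with filterByExpr, with DESeq2, at an adjusted p of 0.01 or without *Arid1a* WT library 1. Among those called, the only gene whose log2 CPM averaged 1 or more and had no overlap between genotypes was *Slc5a4b*, of the sodium-glucose cotransporter family, which rose from 2.08 ± 0.158 to 7.53 ± 0.6995 TPM (log2 fold change 1.995, SE 0.10, edgeR adjusted p = 9.86e-11).

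Among 12 other monocarboxylate carriers and their partner, 3 were higher and 7 lower, a share called near the 74% of all genes tested, with a median log2 fold change of -0.82. The number higher was 1 with limma on log2 TPM, and the number lower was 5 with that fit or with offsets for transcript length. *Nptn* encodes neuroplastin, a relative of basigin and embigin that can also accompany MCT proteins. It rose from 16.7 ± 1.54 to 42.1 ± 3.43 TPM (log2 fold change 1.33, SE 0.06, edgeR adjusted p = 8.32e-11), unlike *Bsg* and *Emb*. *Slc16a10*, which carries aromatic amino acids, rose (log2 fold change 0.68), and *Slc16a12*, a creatine carrier (-1.37), and *Slc16a6*, a carrier of ketone bodies (-0.68), fell. *Slc16a10* and *Slc16a12* were apart between genotypes in CPM, but their TPM overlapped, at 1.77 to 3.11 and 2.69 to 3.87 TPM for *Slc16a10* and 1.23 to 2.96 and 0.291 to 2.14 TPM for *Slc16a12* in *Arid1a* WT and *Arid1a* cKO.

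Genes that act on lactate and pyruvate after entry were mixed, with 4 of 15 higher, 8 lower and 3 not called and a median log2 fold change of -0.19. Over all genes tested 36.5% were higher and 37.5% lower, and the share called in either direction, 74%, was near that of this list. *Pdk3*, an X-linked kinase that inhibits pyruvate dehydrogenase, rose from 19.7 to 74.1 TPM (log2 fold change 2.05). *Mpc2*, a subunit of the mitochondrial pyruvate carrier, rose from 337 to 543 TPM (0.79). The pyruvate dehydrogenase subunits *Pdha2*, the autosomal testis form (-0.81), and *Pdhb* (-0.75) fell. The lactate dehydrogenases were chosen for mention after their values were seen. *Ldhd*, which acts on D-lactate, was scarce and fell from 1.40 to 0.406 TPM (log2 fold change -1.74, edgeR adjusted p = 8.66e-06), and *Ldhb* had 33 counts over the *Arid1a* WT libraries and 0 over the *Arid1a* cKO libraries. The abundant forms moved less. *Ldhc*, the germ cell form, went from 4760 to 3787 TPM (log2 fold change -0.19, edgeR adjusted p = 0.0421), and *Ldha* went from 904 to 728 TPM (-0.17, edgeR adjusted p = 0.0485). *Ldhal6b*, a form made in testis, was not called, at 1134 and 955 TPM (-0.11, edgeR adjusted p = 0.206). The CPM values of all 3 overlapped between genotypes, and the number of the 15 called lower was 5 with filterByExpr and 6 with DESeq2.

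Glucose is trapped in the cell by hexokinases, and 2 of 5 were higher and 1 lower, beside 74% called over all genes tested. *Hk1*, the main form here, rose from 317 ± 13.3 to 786 ± 36.6 TPM (log2 fold change 1.65, SE 0.05, edgeR adjusted p = 1.08e-12). *Hk2*, the form induced in many glycolytic cells, fell from 5.87 to 2.08 TPM (log2 fold change -1.35). *Hk1* rose while *Slc2a3* fell, with *Hk1* above *Slc2a3* in *Arid1a* cKO and below it in *Arid1a* WT on the TPM scale.

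Of 7 regulators of GLUT level or location, 5 were lower and 1 higher, with a median log2 fold change of -0.46, and the share called was again near the 74% of all genes tested. *Txnip*, an arrestin that removes GLUT1 from the surface, fell from 37.2 to 14.8 TPM (log2 fold change -1.19). *Mlxipl*, a glucose-responsive transcription factor, fell (-0.84), while *Arrdc4*, an arrestin related to *Txnip*, rose (0.63).

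Marker genes of other cell types moved with genotype in the same libraries, where 36.5% of all genes tested were called higher and 37.5% lower. In bulk samples, fewer cells of a type and less RNA per cell cannot be told apart. All 15 spermatid markers were higher in *Arid1a* cKO, with a median log2 fold change of 2.16, and their sum rose from 6559 to 7435 TPM in *Arid1a* WT to 26045 to 28056 TPM in *Arid1a* cKO. The rise of *Slc16a7*, at 1.79, and of *Hk1* stood beside that of the spermatid list. All 11 Sertoli cell markers were lower, with a median of -1.54, and their sum fell from 543 to 624 TPM to 159 to 163 TPM. Of 7 Leydig cell markers 6 were lower, with a median of -2.94, from 78.7 to 92.2 TPM down to 7.27 to 8.91 TPM. None of the markers of these 3 lists was at 0 across a genotype. Their part in the changes of *Slc2a3*, *Slc2a8*, *Slc16a1*, *Emb*, *Bsg*, *Slc2a5* and *Slc16a7* was not tested.

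Markers of earlier germ cells were divided. Of 12 spermatogonial genes, 9 were higher and 2 lower (summed TPM 139 to 150 in *Arid1a* WT and 145 to 156 in *Arid1a* cKO). Of 6 leptotene and zygotene genes, 3 were higher and 3 lower (258 to 301 and 107 to 115). These counts and those below stand beside 36.5% higher and 37.5% lower over all genes tested. Macrophage markers were higher for 6 of 7 (4.86 to 5.94 and 11.6 to 14.2), peritubular myoid markers for 4 of 4 (7.33 to 9.71 and 10.1 to 12.5) and endothelial markers for 2 of 4 with 1 lower (3.98 to 5.09 and 5.50 to 5.98). Of 3 erythrocyte markers (2.21 to 3.73 and 0.208 to 0.778) only *Hba-a1* was tested, and it was lower, and *Hbb-bt* was at 0 in all *Arid1a* cKO libraries.

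**Figure D4:**
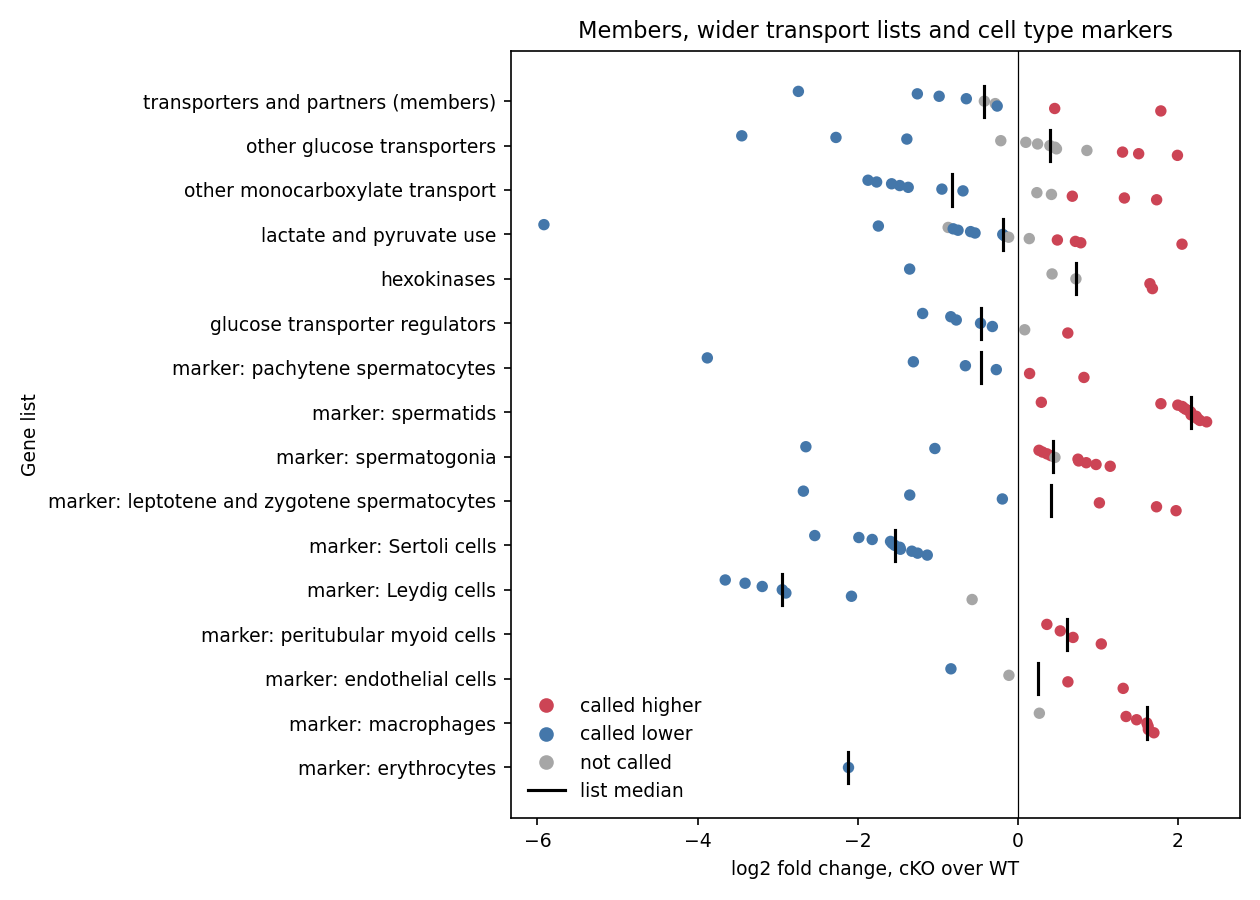
Log2 fold change (*Arid1a* cKO over *Arid1a* WT) of each tested gene in the 9 transporter and partner genes, the wider transport and metabolism lists and the cell type marker lists, with a bar at each list's median. Spermatid markers centre on 2.16 and Sertoli and Leydig markers on -1.54 and -2.94, and the leftmost point is *Ldhb*, with 33 counts over the *Arid1a* WT libraries and 0 over the *Arid1a* cKO libraries, whose fitted value depends on the prior count.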

How the data were processed

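Gene expression was measured by RNA-seq in 8 libraries, 4 *Arid1a* WT and 4 *Arid1a* cKO, grouped and numbered by their labels. The authors quantified paired-end reads with Salmon and summed transcripts to genes with tximport (mm10 known genes), and deposited estimated counts per gene, unscaled for depth or length. The authors also deposited TPM per gene. Their table of fold changes and p-values from DESeq2 was not used. The versions of Salmon and DESeq2 are not given in the sources used here.

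The planned test was for whole counts, so these estimates were rounded first. A gene needed 10 counts or more in the sum of its 8 libraries to enter the edgeR 4.0.16 fit in R 4.3.3 (TMM, glmQLFit and glmQLFTest, genotype only). Calls used a threshold of 0.05 on p-values adjusted by Benjamini-Hochberg across all genes tested. CPM used TMM-scaled library sizes. Average transcript length was the estimated count over TPM, centred on each library's median, with log2 values tested by limma 3.58.1. Symbols, positions and promoters came from RefSeq (GRCm38.p6, the patch release of the mm10 build), matched for 21036 genes, and shared 31-base words from GENCODE transcripts. The tests were run on simulated counts first.

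The genes described and all lists were chosen with earlier results of these data known. All 9 genes are described. From each other list, up to 2 called genes with the largest rise and up to 2 with the largest fall are named, among those whose log2 CPM averaged 1 or more and with no overlap between genotypes, along with partners of the 9 genes. One gene that this rule names is not reported here. The likeness of patterns was taken from the gene with the highest mean TPM. Library totals were 15850961 to 22044507 counts, and counting error was largest for *Slc16a3*, at 12 to 34 counts per library. Alternatives were other scalings, filters and tests, TPM in place of counts, the replicate number as a block, an adjusted p of 0.01, and each library left out in turn.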

Additional observations from a re-analysis of the deposited data

Results flagged for a closer look

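In 36 sets of 4 libraries (level and average transcript length of each of the 9 genes in each genotype), 3 had a library set apart from the other 3 by a gap above Dixon's 95% critical value, and chance would give about 1.8, or 1 in 20. All 3 were average transcript lengths, given here relative to the gene's geometric mean. The length of *Slc2a8* in *Arid1a* WT had a gap of 0.942 of the range, with library 4 at 1.00 and the others at 1.02. In *Arid1a* cKO the length of *Slc2a8* had a gap of 0.887, with library 3 at 0.923 and the others at 1.00 to 1.01. The length of *Slc16a7* in *Arid1a* WT had a gap of 0.917, with library 1 at 1.00 and the others at 1.02.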

How the results depend on the processing

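Each of the 7 calls among the 9 genes kept its direction and its side of the threshold in all 19 alternatives, with log2 fold changes of -2.89 to -2.71 for *Slc2a3* and 1.69 to 1.83 for *Slc16a7*. *Slc16a3* was called in none of them, with -0.54 to -0.23 when each library was left out. *Slc2a1* was called lower without TMM scaling (-0.38), with limma on log2(TPM + 1) (-0.28) or on log2(TPM + 0.1) (-0.38) and without *Arid1a* WT replicate 2, and its value with each library left out ranged from -0.35 to -0.18. The cause was not tested. The number of other glucose transporters called higher was 1 in place of 3 with filterByExpr, DESeq2 or an adjusted p of 0.01, and 1 to 2 with each library left out. The number of lactate and pyruvate genes called lower was 5 with filterByExpr, 6 with DESeq2 and 6 to 9 with each library left out, and the number of other monocarboxylate carriers called higher was 1 with either limma fit on TPM.

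Same-numbered libraries of the genotypes did not deviate together (correlations of 0.162, 0.0125, 0.0852 and -0.137, and 1 of 4 libraries matched its own number best), so the numbers do not pair the samples. With the replicate number as a block, 6429 genes were called higher and 6671 lower, against 6435 and 6613. Under the replicate block the change in average length was 0.032 for *Slc2a5* (adjusted p = 0.184) and -0.048 for *Slc16a7* (adjusted p = 0.0624), neither called. With each library left out the log2 length change ranged from 0.028 to 0.035 for *Slc2a5*, 0.025 to 0.038 for *Emb*, -0.12 to 0.062 for *Slc2a1*, -0.40 to 0.13 for *Slc16a3* and -0.0012 to 0.0022 for *Bsg*. *Slc2a1*, *Slc16a3* and *Bsg* were called in none of these fits, and *Emb* only without *Arid1a* WT replicate 3 (adjusted p = 0.0470).

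With CPM in place of TPM the log2 ratio of mean levels was -2.74 for *Slc2a3*, 0.46 for *Slc2a5*, -0.64 for *Slc16a1*, 1.79 for *Slc16a7* and -0.26 for *Bsg*. As shares of estimated counts in *Arid1a* WT and *Arid1a* cKO, *Slc2a3* held 85.2% and 40.0%, *Slc2a5* 13.3% and 57.4%, *Slc2a8* 1.47% and 2.34%, *Slc16a1* 12.6% and 2.61%, *Slc16a7* 87.0% and 97.3%, *Bsg* 98.7% and 99.4%, and *Emb* 1.28% and 0.646%. Dropping TMM moved the median of all genes by -0.098. Depth limits *Slc16a3*, at 12 to 34 counts per library, and *Slc2a1*, at 55 to 109.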

Other observations

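In the wider transport and metabolism lists, average transcript length was called different between genotypes for *Hk1* and *Dlat*, a subunit of pyruvate dehydrogenase. Over all 16529 genes with a length value, 13% were called in either direction. *Hk1* was longer in *Arid1a* cKO (log2 0.21, limma adjusted p = 0.00132), beside its rise in level from 317 to 786 TPM. *Dlat* was shorter (log2 -0.19, limma adjusted p = 0.00392). Among the cell type markers, the length of *Sycp1* (-0.11, limma adjusted p = 0.00933) and of *Csf1r* (0.52, limma adjusted p = 0.0115) was called too.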
